A study of Mus musculus with 8 samples.

Results

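NK and cytotoxic genes are the 10 genes Ncr1, Klrb1c, Klrk1, Klrd1, Nkg7, Gzma, Gzmb, Prf1, Eomes and Tbx21, chosen by name from the 21827 protein-coding genes of the annotation and not by any measured value. For each gene, peaks at the promoter and within 20 kb of the gene were read from 4 bulk ATAC-Seq libraries, and fragments were counted in 2 single-cell sets. ATAC-Seq uses the Tn5 transposase to cut and tag open chromatin. All material was formalin-fixed paraffin-embedded (FFPE) spleen of C57BL/6J mice, with no treatment or genetic change named. The study's methods give the mice as 8 weeks old and of both sexes; which sex or how many animals lay behind each library was not stated there. Tagmented nuclei were purified without (−RV) or with (+RV) reverse crosslinking, the step that removes formaldehyde bonds, and each condition had 2 bulk libraries (R1 and R2) that the study calls technical replicates. The 4 single-cell samples, 2 per condition, came as 1 pooled fragment set per condition, so each set counted as 1 sample with no replicate. By the study's methods, bulk material was divided between the 2 conditions after tagmentation, and single-cell nuclei after the last ligation of barcodes. Whether equal replicate numbers mark parts of the same tagmented material was not stated.

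Natural killer (NK) cells and cytotoxic T cells kill target cells by releasing granules that hold perforin and granzymes. Receptors on the NK surface, several of them encoded side by side in the NK gene complex, decide whether a target is attacked, and the T-box factors Eomes and T-bet (Tbx21) direct the program. Of these genes, Ncr1 (the activating receptor NKp46) and Klrb1c (NK1.1) mark NK cells most closely, whereas the granule genes and both T-box factors are also used by cytotoxic T cells.

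The bulk lists held 32288 and 32736 peaks in the −RV libraries, and 47755 and 47864 in the +RV libraries. The single-cell sets held 1592372 (−RV) and 13703580 (+RV) fragments on the main chromosomes, from 2406 and 18620 barcodes with medians of 633 and 667 fragments. Both sets shared 2 barcodes. Because the tissue was a mixture, fewer NK cells and less open chromatin per cell cannot be told apart in the bulk values. The replicates were technical, so a p-value over libraries measures only that spread.

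The sequences before the start sites of 4 members show what lay under, or at, the positions tested. They were taken from RefSeq (GRCm38.p6), in which 9 of the 10 genes matched by symbol; Klrd1 had no entry. Prf1 was chosen because all 4 libraries listed its promoter, Gzma because only the +RV libraries did, Gzmb because a single library did, and Ncr1 because none did. The stretches lie at chr10:61297586-61297832 (plus strand), chr13:113100982-113101231 (minus), chr14:56262335-56262584 (minus) and chr7:4337474-4337723 (plus), end before the first annotated start, and read 5′ to 3′ along the gene. Capitals mark matches to the motif letters given after them.
Prf1: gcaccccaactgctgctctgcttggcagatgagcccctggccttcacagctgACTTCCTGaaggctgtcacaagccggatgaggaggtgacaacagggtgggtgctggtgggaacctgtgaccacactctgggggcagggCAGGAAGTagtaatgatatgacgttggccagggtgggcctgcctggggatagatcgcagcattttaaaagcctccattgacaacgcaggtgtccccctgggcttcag
Gzma: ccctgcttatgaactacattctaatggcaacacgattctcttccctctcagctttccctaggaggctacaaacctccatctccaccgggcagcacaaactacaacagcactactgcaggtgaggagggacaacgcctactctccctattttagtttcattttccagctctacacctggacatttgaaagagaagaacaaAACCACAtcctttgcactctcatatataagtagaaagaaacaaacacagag
Gzmb: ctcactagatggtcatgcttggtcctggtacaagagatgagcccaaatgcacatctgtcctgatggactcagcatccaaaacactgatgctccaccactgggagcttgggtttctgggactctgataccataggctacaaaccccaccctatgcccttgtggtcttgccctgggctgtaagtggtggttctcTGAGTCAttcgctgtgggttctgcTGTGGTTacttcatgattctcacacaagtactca
Ncr1: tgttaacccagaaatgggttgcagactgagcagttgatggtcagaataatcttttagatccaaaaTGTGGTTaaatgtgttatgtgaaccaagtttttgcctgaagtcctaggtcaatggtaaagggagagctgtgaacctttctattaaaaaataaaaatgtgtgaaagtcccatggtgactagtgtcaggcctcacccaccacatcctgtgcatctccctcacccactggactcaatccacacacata

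The motifs searched on both strands of the 250 bases before each RefSeq start were T-box (AGGTGTNA), RUNX (TGTGGTT), ETS (CNGGAAGT), AP-1 (TGANTCA) and Sp/KLF (GGGCGG). None of these letter strings overlapped another in the members' matches, except that AP-1 reads the same on both strands and that the Sp/KLF matches of Tbx21 ran into each other. RUNX letters occurred before the starts of 4 of the 9 genes (Ncr1, Klrk1, Gzma and Gzmb), against 4.40% of 32851 promoters. ETS letters occurred in Prf1, at 198 to 191 and 110 to 103 bases before the start, and in Tbx21, against 7.58% of promoters. The T-box letters occurred in Nkg7 (2.68% of promoters), 14 to 7 bases before its RefSeq start, AP-1 letters in Gzmb (6.75%) and Sp/KLF letters in Tbx21 (32.7%). The Nkg7 match lies downstream of the gene's first start in the annotation used for the promoter calls. A match describes letters in the window and says nothing of binding.

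The first question was whether the promoters of these genes were called as open in FFPE spleen, and whether reverse crosslinking changed that. A promoter counted as called when a peak overlapped the window from 1000 bp before to 200 bp after any annotated start. The same 3 genes, Klrd1, Nkg7 and Prf1, were called in both −RV libraries, and both +RV libraries called these and Gzma. Over all genes the shares were 47.7% and 53.6%, so 3 and 4 of 10 lay below the background. Ncr1 and Klrb1c had no promoter peak in any library, as did 43.5% of all genes. The other 4 members, Klrk1, Gzmb, Eomes and Tbx21, were each called in 1 library.

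**Figure D1:**
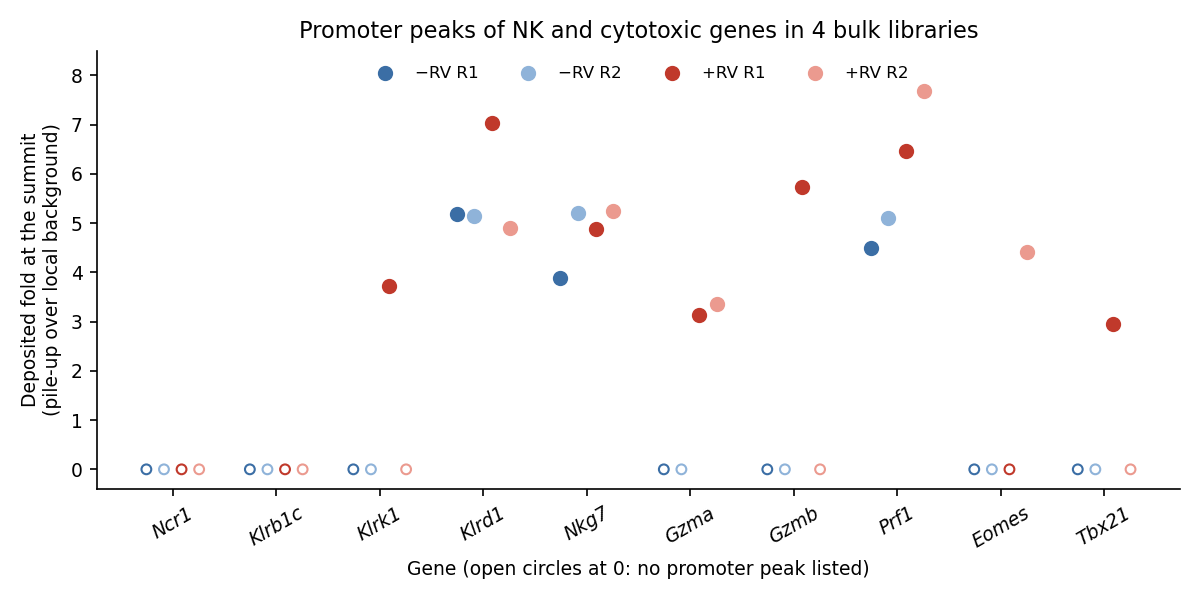
Deposited fold of the promoter peak (pile-up over local background, y axis) for each of the 10 genes (x axis) in the 2 −RV and 2 +RV bulk libraries, with open circles at 0 where no promoter peak was listed. Klrd1, Nkg7 and Prf1 have 4 filled points each, Gzma 2 (both +RV), Klrk1, Gzmb, Eomes and Tbx21 1 each, and Ncr1 and Klrb1c none.

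Among the receptors, Klrd1 (CD94, the partner of NKG2 receptors, at chr6:129591782-129598775) had deposited folds of 5.18 and 5.15 in the −RV libraries and 7.03 and 4.91 in the +RV libraries. Each fold compares the summit's pile-up with local background as the caller estimated it. The conditions overlapped, and in each library the peak ranked within the top 27.4% of its list. Klrk1 (NKG2D, an activating receptor for stress ligands, at chr6:129610323-129623864) was listed only in +RV R1, at a fold of 3.72. Klrb1c (chr6:128778485-128789215) and Ncr1 (chr7:4337724-4345164) were not listed.

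Nkg7, a granule membrane protein (chr7:43437073-43438249), had folds of 3.88 and 5.21 in the −RV libraries and 4.88 and 5.25 in the +RV libraries, and the conditions overlapped. Prf1, which encodes the pore-forming protein perforin (chr10:61297833-61304680), had folds of 4.50 and 5.11 without and 6.46 and 7.67 with reverse crosslinking. Both +RV values of Prf1 lay above both −RV values, and its peak was wider there (670 and 718 bp against 417 and 429 bp). How many of all called promoters show such an order of folds was not computed. With 2 libraries against 2, no exact permutation test can go below p = 0.33.

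Gzma (granzyme A, a granule protease, at chr13:113093825-113100981) was the only member listed in both +RV libraries and in no −RV library, a pattern found in 3.49% of all genes. Its folds were 3.14 and 3.36, and its peaks ranked at 98.8% and 96.1% of their lists counted from the strongest. The call was therefore among the weakest of both lists, and it was lost when only peaks with a −log10 q of at least 5, or the same number of peaks per library, were kept. Gzmb (granzyme B, which cleaves caspases in target cells, at chr14:56258838-56262260) was listed in +RV R1 alone, at a fold of 5.73.

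Tbx21 (chr11:97098071-97115331) was listed at its promoter in +RV R1 alone, with 2 peaks of which the better had a fold of 2.95. Eomes (chr9:118478212-118486132) was listed in +RV R2 alone, at a fold of 4.42 and 454 bp downstream of a start. Klrk1, Gzmb, Eomes and Tbx21 were thus each called by 1 of 2 +RV libraries, a pattern of 2.75% of all genes. The +RV libraries called 7 (R1) and 5 (R2) members, and each −RV library called 3, so the count with reverse crosslinking depended on the library.

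The second question was whether peaks around the genes differed. Within 20 kb of the genes (9 windows after merging, 454 kb), the −RV libraries held 19 and 21 peak summits and the +RV libraries 36 and 35. The means were 20 ± 1.41 and 35.5 ± 0.707 (SD, n = 2), a ratio of 1.77, and the groups did not overlap (exact permutation test, two-sided, p = 0.33, the smallest possible). Peaks covered 8.69 and 9.51 kb without and 16.8 and 17.1 kb with reverse crosslinking, a ratio of 1.87. Over the whole lists the ratios were 1.47 for peaks and 1.64 for covered bases. With the same number of peaks taken from each list, the windows held 19 and 20 against 18 and 22 summits (exact permutation test, p = 1). There the Klrb1c window held 10 and 10 against 6 and 5, and the other windows 9 and 10 against 12 and 17. Covered length at equal list length was 8.69 and 9.27 kb against 11.4 and 13.2 kb, a ratio of 1.37 with no overlap (exact permutation test, p = 0.33).

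**Figure D2:**
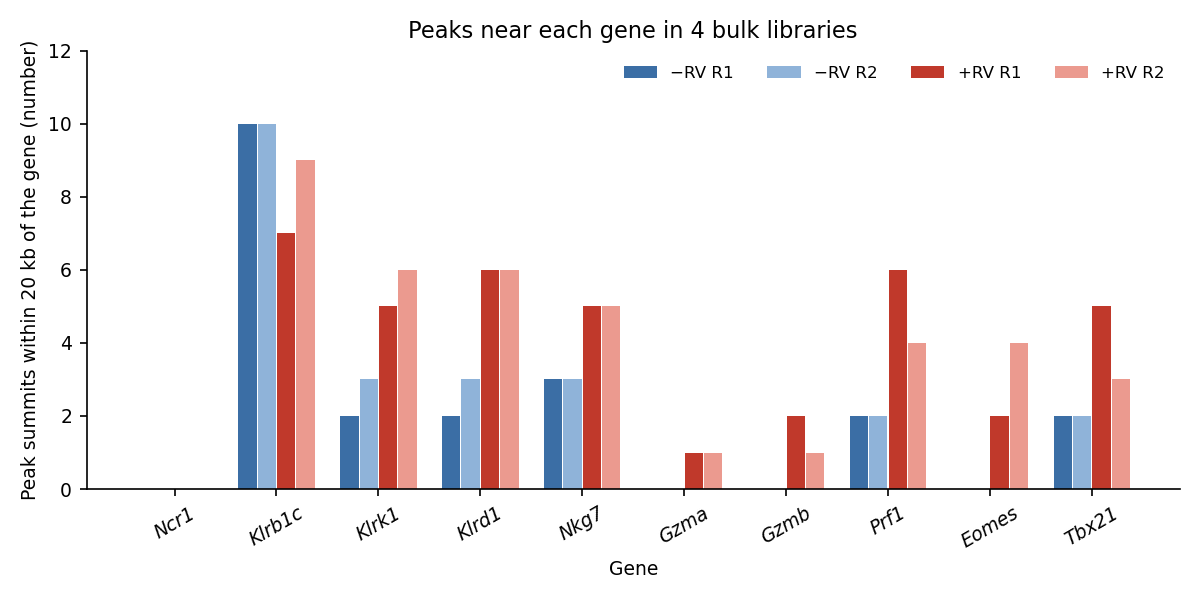
Number of peak summits within 20 kb of each gene (y axis) in the 4 bulk libraries (bars), by gene (x axis). The 8 genes other than Ncr1 and Klrb1c have higher bars in both +RV libraries than in either −RV library, Klrb1c has lower ones, and Ncr1 has none.

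Gene by gene, 8 of 10 members had more summits in each +RV library than in either −RV library, against 27.0% of all genes. Prf1 had 2 and 2 without and 6 and 4 with reverse crosslinking, Eomes 0 and 0 against 2 and 4, and Tbx21 2 and 2 against 5 and 3. Klrd1 (2 and 3 against 6 and 6) and Klrk1 (2 and 3 against 5 and 6) lie side by side, and their windows share peaks. Nkg7 had 3 and 3 against 5 and 5. Gzma went from 0 and 0 to 1 and 1, and Gzmb from 0 and 0 to 2 and 1. With the same number of peaks per library, 2 members kept this pattern (Nkg7 and Prf1), against 6.46% of all genes.

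A summit within 20 kb was present in both −RV libraries for 6 members (66.8% of all genes) and in both +RV libraries for 9 (72.7%). Ncr1 was the exception, with no peak in any of the 4 libraries. Klrb1c was the only member with fewer summits in each +RV library than in either −RV library (10 and 10 against 7 and 9), a pattern of 1.47% of all genes. The bases under its peaks went the other way, at 3819 and 3840 without and 4373 and 5006 with reverse crosslinking, so fewer summits stood for longer peaks.

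**Figure D3:**
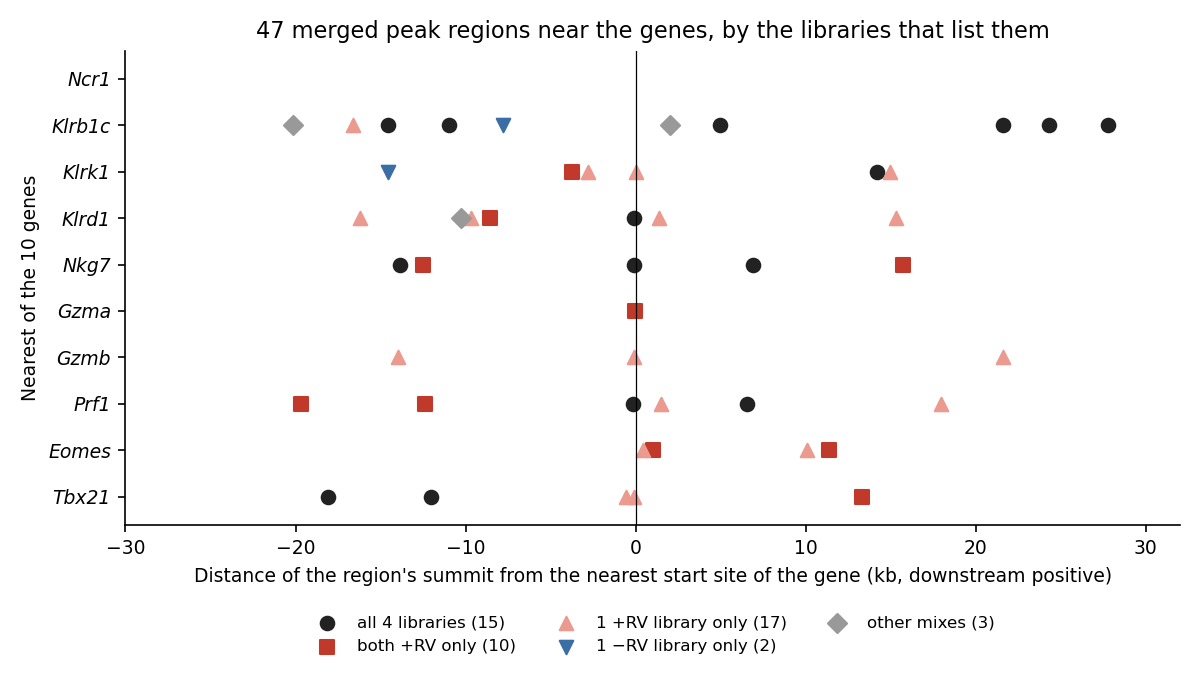
Distance of each of 47 merged peak regions from the nearest start site of the gene (x axis, kb, downstream positive), by gene (y axis), with symbols for the libraries that listed the region. There are 15 regions in all 4 libraries, 10 in both +RV libraries only and none in both −RV libraries only, and no region lies near Ncr1.

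Merged over the libraries, the peaks formed 47 regions near these genes. Of these, 15 were listed in all 4 libraries (31.9%, against 39.2% of 60127 regions over the genome), and 10 in both +RV libraries only (21.3% against 12.5%). A further 17 were listed in 1 +RV library only (36.2% against 26.3%), 2 in 1 −RV library only, and 0 in both −RV libraries only (0.427% over the genome). By position, 22 regions lay outside protein-coding genes, 9 in introns, 6 in exons, 9 at member promoters and 1 at the promoter of another gene, Etfb. The Etfb region, 6892 bp downstream of a Nkg7 start, was the strongest near Nkg7 (folds of 7.29, 8.70, 7.10 and 6.47) and belongs to a gene for an electron transfer protein.

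Some members without a reproducible promoter peak had a distal one. Tbx21 had a region at -12006 bp from its start, upstream (chr11:97126834-97127635) in all 4 libraries, with folds of 5.68 and 5.71 without and 6.75 and 5.68 with reverse crosslinking. Another lay at -18073 bp (folds of 3.69, 4.20, 3.82 and 2.73). Klrk1 had one past its 3′ end, 14177 bp from the start (chr6:129608283-129608972), with folds of 4.40 and 4.31 against 4.47 and 5.48; it also lies within 20 kb of Klrd1. Klrb1c, with no promoter peak in any library, had its strongest at -14560 bp, with folds of 6.28 and 6.46 against 5.96 and 6.09. Another lay 24329 bp downstream of its start, with folds of 5.63 and 5.51 against 5.33 and 5.33. All 4 libraries listed both. Neither had a copy of the kind described below, but each lies between regions that did, and less similar or shorter copies were not counted. The conditions overlapped at both Tbx21 regions. At the Klrk1 region both +RV values lay above both −RV values, and at both these Klrb1c regions they lay below. The share of all regions with either pattern was not computed.

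Prf1 had a distal region in all 4 libraries, 6567 bp downstream of its second start and outside the gene (chr10:61306019-61306675), with folds of 5.27 and 5.19 against 7.64 and 5.87. Both +RV values lay above both −RV values, and the share of all regions with this order was not computed. Regions at -12394 and -19665 bp were listed in both +RV libraries only, at folds of 3.36 to 5.52. Eomes had no region in the −RV libraries with a summit in its window. Its regions 994 bp (in an exon) and 11385 bp downstream of a start (chr9:118489400-118489971) were listed in both +RV libraries only, at folds of 3.43 and 4.01, and of 4.23 and 4.70. The summits of the distal regions of Tbx21 and Prf1 are shown because all 4 libraries listed them, as the 200 bases at chr11:97127237-97127436 (minus strand) and chr10:61306268-61306467 (plus strand), with capitals for a motif match.
Tbx21 distal: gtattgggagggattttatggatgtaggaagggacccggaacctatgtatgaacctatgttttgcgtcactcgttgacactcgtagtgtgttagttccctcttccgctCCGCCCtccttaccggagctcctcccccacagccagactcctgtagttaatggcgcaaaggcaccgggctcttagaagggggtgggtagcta
Prf1 distal: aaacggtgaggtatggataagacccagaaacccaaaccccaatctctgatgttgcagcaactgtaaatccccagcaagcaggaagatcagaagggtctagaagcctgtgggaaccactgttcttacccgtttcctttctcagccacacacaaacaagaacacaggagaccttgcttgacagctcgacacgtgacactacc
The former holds the Sp/KLF letters on the strand opposite the gene, and the latter holds none of the motif letters searched.

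The regions around Klrb1c need care, because 6 of 10 have a copy elsewhere on chromosome 6 with at least 90% identity over 150 bases or more, against 2 of 37 near the other members. The latter were single-library regions in repeats with 92 and 1495 copies. A pair of regions 38238 bp apart, on either side of Klrb1c, lies within a copied stretch. The bases around the summit of the upstream one were 97.0% identical to their copy by the downstream one. The central 80 bases of one (chr6:128805208-128805287) and their counterpart (chr6:128766884-128766963) are shown to make this plain, with a capital at the differing base. They differ at 1 of 80 positions (A76T, counted from 1 at the first base shown, first sequence first).
Upstream copy: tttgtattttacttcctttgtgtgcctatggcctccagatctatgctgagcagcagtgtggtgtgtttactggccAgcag
Downstream copy: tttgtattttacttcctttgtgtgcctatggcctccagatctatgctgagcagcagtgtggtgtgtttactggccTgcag
How reads with several matching places were treated in the bulk lists was not given in the sources used here, so the counts near Klrb1c are uncertain. Without its window, the −RV libraries held 9 and 11 summits and the +RV libraries 29 and 26, a ratio of 2.75. With the same number of peaks per library as well, the ratio was 1.53.

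The single-cell fragments gave a second reading of the same promoters. Counted by midpoint, the 10 promoters together held 31 fragments in the −RV set and 338 in the +RV set. Scaled to nuclear fragments (CPM, the usual depth scaling) that was 19.5 (95% Poisson interval 13.2 to 27.6) and 24.7 (22.1 to 27.4). The ratio of +RV to −RV was 1.27 (exact conditional interval 0.876 to 1.89), so at this depth the sets could not be told apart. All intervals cover counting error only, since there was 1 set per condition and no test.

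**Figure D4:**
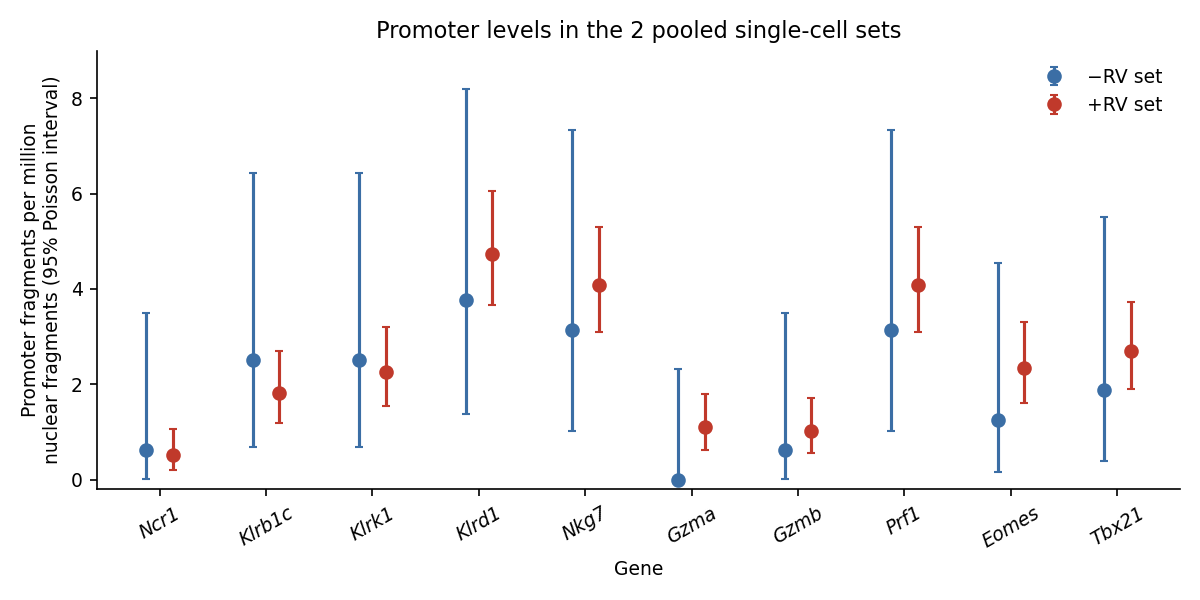
Promoter fragments in CPM of nuclear fragments (y axis) for each of the 10 genes (x axis) in the −RV and +RV single-cell sets, with 95% Poisson intervals as bars. The intervals of the 2 sets overlap for every gene, and Klrd1, Nkg7 and Prf1 have the highest +RV points, at 4.74, 4.09 and 4.09.

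Klrd1 had 65 promoter fragments in the +RV set (4.74 CPM), Nkg7 and Prf1 56 each (4.09 CPM), Tbx21 37, Eomes 32, Klrk1 31, Klrb1c 25, Gzma 15, Gzmb 14 and Ncr1 7. Without reverse crosslinking the same genes had 6, 5, 5, 3, 2, 4, 4, 0, 1 and 1. Klrd1, Nkg7 and Prf1, whose promoters were called in all 4 bulk libraries, thus had the highest counts in both sets. The 0 for Gzma allows a level of up to 1.88 CPM (3 counts), above its +RV level of 1.09 CPM, so no fold is given.

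Per length of promoter window, the density in the +RV set relative to the genome mean was 10.5 (8.13 to 13.4) for Klrd1, 8.86 (6.69 to 11.5) for Nkg7 and 6.13 (4.32 to 8.45) for Tbx21. It was 4.78 for Eomes, 4.64 for Prf1, 4.14 for Klrb1c, 2.69 for Klrk1, 2.47 for Gzma, 2.32 for Gzmb and 1.118 (0.450 to 2.30) for Ncr1. Intervals of neighbours in this order overlapped throughout, whereas those of Klrd1 and Ncr1 were apart. The Ncr1 promoter was thus not distinguishable from the genome mean. By the names of the sets, barcodes had been selected on the share of reads at start sites, so these densities apply to selected barcodes. Among all promoters, these levels in CPM ranked from the 27.2th percentile (Ncr1) to the 55.0th (Klrd1).

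On the log2 scale with 1 CPM added, 7 of 10 members were higher in the +RV set, with a median of 0.30 against 0.16 over all genes and a range of -0.31 (Klrb1c) to 1.07 (Gzma). One member, Gzma, was higher by 1.5-fold or more, against 16.7% of all genes, and its value rests on the 0 in the −RV set. None was lower by that factor, against 6.40%. Over the whole gene window (5 kb upstream to 500 bp past the end), Gzma had 2 fragments in the −RV and 73 in the +RV set, or 1.26 and 5.33 CPM. The ratio was 4.24 (1.13 to 35.7), and Gzma was the only member of 10 whose gene-window interval left out 1. It rests on the 2 fragments of the −RV set. The share of all genes with such an interval was not computed, so whether Gzma differs from other genes is not known.

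Within 20 kb of the genes the sets held 595 and 5601 fragments, or 374 (344 to 405) and 409 (398 to 420) CPM. That density was 2.24 and 2.45 times the genome mean. The ratio of the sets was 1.09 (1.01 to 1.19), and its log2 value of 0.13 turned to -0.015 for fragments of 50 to 100 bp and to -0.052 when scaled to fragments in all promoters. With reverse crosslinking, the density around Ncr1 (0.562), Gzmb (0.820) and Gzma (0.835) lay under the genome mean. It was 1.45 around Eomes, 1.99 around Prf1, 2.30 around Tbx21, 2.52 around Klrk1 and 3.04 around Klrd1. Around Nkg7 (with the Etfb promoter) it was 4.39, and around Klrb1c (with copied regions and others without a copy) 7.02.

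Both sets carry the same 20 Tn5 index numbers, which gives a view of the spread inside each. Across the indices, the rate within 20 kb of the genes ran from 216 to 527 CPM (median 381) in the −RV set and from 337 to 464 CPM (median 410) in the +RV set. It was higher in the +RV set for 14 of 20 indices, and the ranges overlapped. The 15 regions listed in all 4 bulk libraries were together 26.0 (−RV) and 31.3 (+RV) times as dense in fragments as the genome. Regions around Klrb1c, with up to 73.9 and 75.6, and the Etfb promoter, with 36.2 and 54.6, weigh heavily in these values. The rest of the 15 ran from 6.77 to 25.6 in the −RV set and from 8.48 to 21.3 in the +RV set. The 10 regions listed in both +RV libraries only were 7.48 (19 fragments) and 6.49 (142 fragments) times as dense, so these regions held fragments above the genome mean in the −RV set as well.

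Fragment length was where the sets differed. Near the members, 9 of 595 −RV fragments were longer than the DNA wound around 1 nucleosome core (1.51%, exact interval 0.694 to 2.85), against 1281 of 5601 +RV fragments (22.9%, 21.8 to 24.0). Over all nuclear fragments the shares were 2.29% and 20.4%. By gene, the +RV share ran from 17.7% (Gzma) to 25.8% (Eomes). In the −RV set, no long fragment was found near Ncr1, Gzma, Gzmb, Eomes or Tbx21, with 15 to 68 fragments each, and the highest share was 2.56% (Klrk1). At the member promoters the shares were 6.45% (2 of 31) and 24.9% (84 of 338), against 4.83% and 29.3% at all promoters.

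Few barcodes touched these genes. With reverse crosslinking, 1309 of 18620 barcodes (7.03%) had a fragment in a member's gene window, 87 (0.467%) in 2 or more members, 6 in 3 and none in 4. Without it, 142 of 2406 (5.90%) had 1 and 9 (0.374%) had 2. The barcodes with 2 or more members were deeper, at medians of 797 (+RV) and 637 (−RV) nuclear fragments against 622 and 586 over all. Tbx21 was seen in the most +RV barcodes (230), followed by Klrk1 (224), Klrb1c (223) and Klrd1 (199), and Ncr1 in the fewest (24). These counts are not scaled to window length, which was 22761 bp for Tbx21 and 6677 bp for Nkg7. Per length, the +RV density relative to the genome mean was highest for Nkg7 (3.49) and Klrd1 (3.28). It was 2.09 for Tbx21 and lowest for Ncr1 (0.384). One +RV barcode held 6 fragments in the Klrb1c window, where no other member had over 3.

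Barcodes were grouped by gene lists of 5 other cell types that hold no member (at least 2 fragments in 1 list and more than in any other). This left 74.7% of −RV and 70.6% of +RV barcodes with no class, and there was no NK group. By the names of their sets, the barcodes used here had been selected on the share of reads at start sites. The study clustered its conventional FFPE single-cell data under another filter, with a cutoff on an enrichment score there, and kept fewer cells. It reported that these clusters showed no genes specific to spleen cell types. The groups here rest on as few as 2 fragments per barcode, so their names describe open gene lists and not identified cells. In the +RV set, the members' gene windows had 209 CPM (179 to 244) in 1024 barcodes open at T cell genes and 108 (93.4 to 123) in 2285 open at B cell genes. They had 85.2 (59.4 to 119) in macrophage, 77.1 (58.3 to 100) in endothelial and 62.3 (46.8 to 81.3) in erythroid barcodes. Barcodes with no class, the largest group, had 104 (97.7 to 111) and 939 of the member fragments. The T cell interval stood apart from the others, and the intervals of the B cell barcodes and those with no class overlapped. Median depths were 640 (T cell) and 670 (B cell) nuclear fragments.

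The ratio of T cell to B cell barcodes was 1.94 (1.57 to 2.398; 165 and 205 fragments) in the +RV set and 1.56 (0.611 to 3.84; 10 and 13 fragments) in the −RV set. These values are for gene windows, and no ratio over the gene windows of all genes was computed. Over the promoter windows of all genes the ratio was 1.04 in both sets. In the members' own promoter windows it was 2.66 (1.69 to 4.22) in the +RV set and 2.02 (0.147 to 27.9) in the −RV set. Barcodes with no class in the −RV set had 110 CPM (91.3 to 130), and the B cell barcodes 89.6 (47.7 to 153). By gene, the +RV ratio was 3.11 (1.46 to 6.75) for Eomes, 2.90 (1.53 to 5.53) for Klrk1, 2.27 (1.07 to 4.78) for Prf1 and 2.12 (1.24 to 3.61) for Tbx21. The intervals of Klrd1, Nkg7, Gzma, Gzmb, Klrb1c and Ncr1 held 1. The share of all genes whose interval leaves out 1 was not computed, so whether the members differ from other genes in this count is not known. For Ncr1 and Klrb1c together the ratio was 1.33 (0.805 to 2.14), against 2.15 (1.69 to 2.72) for the other 8. Among barcodes with at least 1000 fragments the ratio over all 10 was 1.25 (0.830 to 1.86), so there the interval held 1. Over barcodes of any depth, the +RV ratio of the wider lists below was 1.55 (1.36 to 1.77) for activating receptors and adaptors. It was 1.64 (1.35 to 1.97) for inhibitory receptors and 1.66 (1.32 to 2.08) for death ligands, cytokines and chemokines. It was 1.41 (1.26 to 1.57) for cytokine and homing receptors and 1.17 (1.09 to 1.26) for transcription factors. Intervals held 1 for signalling (1.09, 0.980 to 1.22) and granule contents and release (0.991, 0.863 to 1.13).

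The 3 genes whose promoter rates over the 5 barcode groups and both sets were most like the members' summed rate were Selenoh, Ltb and Rfx7. Their Pearson r was 0.90, 0.88 and 0.88 over 10 values, the highest of 8759 genes compared. Ltb encodes lymphotoxin beta, a cytokine of lymphocytes. Its promoter in the +RV set had 17.8 CPM in T cell and 8.93 in B cell barcodes, and 1.154 in erythroid barcodes. The 10 values share barcodes and depth, and those of the −RV set rest on few fragments, so the likeness is a description.

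A wider set of 79 NK and cytotoxic genes in 7 lists gave the setting. Promoters were called in both −RV libraries for 37 of them, in both +RV libraries for 49, and in no library for 24. The shares over all genes were 47.7%, 53.6% and 43.5%. In both +RV libraries but no −RV library 5 were called, none showed the opposite pattern, and the background for the gain was 3.49% of all genes. These were Cd226 (an activating receptor, folds of 4.83 and 4.83), Fcer1g (the Fc receptor gamma chain, 4.42 and 4.46), Fasl (a death ligand, 3.39 and 3.19), Xcl1 (a chemokine, 4.44 and 4.47) and Sh2d1b1 (an adaptor of SLAM receptors, 6.47 and 5.41).

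By list, to be read against the same shares, the counts in both −RV and both +RV libraries were 2 and 6 of 12 activating receptors and adaptors, 2 and 3 of 9 inhibitory receptors, and 7 and 7 of 16 genes of granule contents and release. They were 1 and 4 of 9 death ligands, cytokines and chemokines, 9 and 9 of 12 cytokine and homing receptors, 9 and 11 of 12 transcription factors, and 7 and 9 of 9 signalling genes. All 8 granule genes not called in any library were granzymes: Gzmc, Gzmd, Gzme, Gzmf, Gzmg, Gzmk, Gzmm and Gzmn. Of the activating and inhibitory receptors, Klra1 and Cd96 were called in all 4 libraries. Klra3, Klra4, Klra7, Klra8, Klrc1, Klrc2, Klre1, Klrg1, Cd160 and Fcgr3 were called in none. Klri2 was called in 1 library of each condition. Copies elsewhere in the genome were sought only for regions near the members, so these receptor and granzyme promoters were not examined for them. By comparison, the same counts were 11 and 13 of 16 for the T cell list and 13 and 15 of 15 for the B cell list.

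The wider genes with the highest promoter levels in each list were seen in both single-cell sets. Tyrobp (the DAP12 adaptor) had 8.16 and 6.57 CPM in the −RV and +RV sets, and Hcst (the DAP10 adaptor of NKG2D) 3.77 and 7.66. Klra1 had 1.88 and 2.85, and Tigit, an inhibitory receptor, 1.26 and 3.06. Ctsc (cathepsin C, which activates granzymes) had 16.3 and 25.5, a ratio of 1.56 (1.05 to 2.43), and Srgn (the granule proteoglycan serglycin) 15.7 and 11.0. Tnfsf10 (TRAIL) had 5.65 and 8.25, and Tnf 6.28 and 4.82. Il15ra had 5.02 and 7.59, and Il2rb, a chain of the IL-15 receptor, 6.28 and 6.06. Zeb2 had 21.4 and 21.2, Id2 11.3 and 17.4, Syk 9.42 and 11.7, and Txk 6.91 and 6.28. Of these 14 genes, Ctsc was the only one whose interval of the ratio left out 1, and the share of all genes with such an interval was not computed.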

How the data were processed

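ATAC-Seq of FFPE mouse spleen was read from 4 bulk peak lists and 2 pooled single-cell fragment sets, and groups came from the sample labels. The authors deposited 1 peak list per library on mm10 in the layout of MACS2. The deposited score restates the −log10 q at 10 times its size, the deposited ratio is the fold of the pile-up at the summit over local background, and the deposited −log10 p-value and q-value belong to each peak within its own library. The submitters' notes name Bowtie2 2.4, SAMtools 1.15, Picard 1.119 and SEACR 1.3 without roles; the program behind the bulk lists was not stated there. For the single-cell samples, the authors deposited start, end and barcode of unique fragments; the study's methods name BWA on mm10, duplicate removal, and a filter on barcodes. Each pooled set was assigned to its condition by the abbreviation that its name shares with the bulk lists. The names of both sets also carry FRiT, the study's term for the share of reads at start sites. The study counts it from 1000 bp before to 200 bp after the start, the promoter window used here. No column of another series was used.

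From these, promoters (1000 bp before to 200 bp after each start of GENCODE vM21 coding transcripts), windows of 20 kb around genes and gene windows were overlapped with peaks or with fragment midpoints. CPM was computed over fragments on the main chromosomes, with a pseudocount of 1 CPM in log2 ratios of single genes. Bulk totals were compared by an exact two-sided permutation test over libraries. Single-cell values carry 95% exact Poisson, binomial or conditional intervals; a 0 allows up to 3 counts. Copies were sought with blastn 2.17.0 and sequence read with samtools 1.23.1 from GRCm38.p6; numpy 2.4.6, pandas 2.3.3, scipy 1.17.1 and matplotlib 3.10.9 did the rest, tested on simulated data. Named genes were the 10 members, wider-list genes called in both libraries of 1 condition and none of the other, the 2 with the highest mean promoter CPM per list, and the 3 most alike in pattern. Other genes named by a count or as neighbours were chosen after their values were seen. The members, lists and motifs were chosen with earlier results of these data known. Alternatives changed the peak threshold, list length, windows, fragment filters, scaling and barcode groups; those leaving out the Klrb1c window, and the count of members at equal list length, were chosen after seeing the data. Tests on barcodes were not made, since each condition was 1 set.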

Additional observations from a re-analysis of the deposited data

How the results depend on the processing

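The count of 3 members called in both −RV libraries was 3 under every alternative run, and that in both +RV libraries stayed at 3 to 4 under the other thresholds, list lengths and windows, and was 5 to 7 when 1 library was left out (7 from R1 alone). Leaving out 1 library moved the difference in summits between 14.5 and 16.5 and that in covered length between 7.48 and 8.30 kb. The difference of 15.5 summits fell to 11 with a −log10 q of at least 5 and to 0.5 with the same number of peaks per library, and that of 7.89 kb to 6.71 and 3.34 kb. With replicate numbers as a block, the paired differences averaged 15.5 summits and 7.89 kb (exact sign-flip permutation, p = 0.5 for both, the smallest possible); the numbers mark technical replicates, and with 2 pairs of totals whether they pair the libraries was not tested. The promoter log2 ratio of 0.34 was 1.67 (-0.23 to 4.74, from 2 −RV and 85 +RV fragments) in barcodes of at least 1000 fragments and -0.16 for fragments of 50 to 100 bp. The log2 ratio within 20 kb, 0.13, turned to -0.015 for fragments of 50 to 100 bp and to -0.052 when scaled to fragments in all promoters; the cause was not tested. The difference in long fragments of 21.4 percentage points was 22.8 in barcodes of at least 1000 fragments, and 29.1 and 12.1 with limits of 100 and 200 bp, which measure other lengths. The T cell to B cell ratio of 1.56 (−RV) was 4.05 for Ncr1 and Klrb1c, from 3 fragments. That of 1.94 (+RV) was 1.33 for Ncr1 and Klrb1c, 2.66 in promoter windows and 1.25 in barcodes of at least 1000 fragments. For the −RV set this last setting left no member fragment in either group and gave no value. Log2 ratios of single members kept their direction with 0.5 and 5 CPM added. With 31 promoter fragments in the −RV set, depth limits every single-gene comparison there.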
